A study of Mus musculus with 4 samples.

Results

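Immediate early genes were examined in RNA-seq counts of mouse hematopoietic stem and progenitor cells (HSPCs) with and without deletion of Chaf1b. The 10 genes were Fos, Fosb, Jun, Junb, Jund, Egr1, Ier2, Atf3, Dusp1 and Nr4a1, of 43629 gene identifiers counted, and all 10 were among the 16500 genes that passed the filter on low counts. They were chosen by name after Jun and Fosb had been seen to be higher in the deleted cells. Their differences between the groups are therefore given as a description, without p-values. The counted RNA came from 4 libraries of CD117+ HSPCs of strain C57Bl/6, 2 per group, collected 48 h after spinfection. Control cells had the genotype Chaf1b fl/fl, that is, both alleles floxed and intact, and received the empty retroviral vector MIGR1. Deleted cells, labelled Chaf1b -/-, received MIGR1-Cre, in which the virus supplies the Cre recombinase that removes the floxed segment. Cells of both groups grew in a serum-free medium with SCF, IL6, IL3 and LDL and were sorted for the eGFP of the vector, so the control lacks Cre but shares the virus, the culture and the sort. The labels do not say whether replicates came from separate animals. Xist, the RNA of the inactive X chromosome, had 7905 counts in deleted replicate 1 and 23 in deleted replicate 2. The deleted replicates were therefore not repeats of the same cells. In the controls the spread between replicates may be technical. Chaf1b encodes a subunit of CAF-1, the chaperone complex that places histones H3 and H4 on newly replicated DNA.

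Immediate early genes are those that a cell transcribes within minutes of a growth factor, cytokine or stress signal, without first needing to make new proteins. Most encode transcription factors. Kinases of the MAPK family act on factors already bound at their promoters, such as SRF with its ETS partners and CREB, and many of the transcripts are short-lived, so that their levels follow signalling closely. Fos and Jun proteins pair through leucine zippers to form AP-1, which binds the sequence TGANTCA. In blood progenitors AP-1 and Egr proteins are known for their part in monocyte and macrophage differentiation.

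Promoter sequence is shown for 7 of the genes, because the letters of the cAMP response element, the site of CREB and ATF proteins, recur in it. RefSeq promoter windows on GRCm38.p6 were used, 300 bases each, from 250 bases before to 50 bases after the start. An entry was found for 8 of the 10 genes. TGACG, the core of the element, was present on either strand in 6 of these 8, compared with 29.2% of 12587 windows of tested genes and 20.8% of all 32851 windows. The full TGACGTCA, which contains the core, was found in Dusp1 alone of the 8 and in 2.87% of windows of tested genes. TGACATCA, a variant of it described in the Jun promoter, was found in Jun alone of the 8 and in 1.91% of windows of tested genes. TGANTCA was in none of the 8 windows, against 5.49% of windows of tested genes, and the CArG box of SRF was in none, against 1.28%. Those letters may lie outside the windows, and a match is not evidence of a bound site. Each line below gives 80 bases 5′ to 3′ on the gene's strand, all before the start, with TGACG, TGACGTCA or TGACATCA in capitals, or CGTCA where the core lies on the opposite strand. The windows are chr12:85473794-85473873 (+) for Fos, chr7:19310056-19310135 (-) for Fosb, chr4:95052223-95052302 (-) for Jun, chr8:84978805-84978884 (-) for Junb, chr1:191183334-191183413 (-) for Atf3, chr17:26508563-26508642 (-) for Dusp1 and chr15:101266766-101266845 (+) for Nr4a1.
Fos: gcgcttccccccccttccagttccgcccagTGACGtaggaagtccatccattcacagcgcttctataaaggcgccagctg
Fosb: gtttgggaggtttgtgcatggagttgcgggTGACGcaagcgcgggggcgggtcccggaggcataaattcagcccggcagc
Jun: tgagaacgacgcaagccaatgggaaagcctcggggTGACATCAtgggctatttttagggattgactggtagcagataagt
Junb: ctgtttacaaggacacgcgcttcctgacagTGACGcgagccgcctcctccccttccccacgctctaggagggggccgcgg
Atf3: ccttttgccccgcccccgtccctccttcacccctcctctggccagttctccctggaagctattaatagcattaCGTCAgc
Dusp1: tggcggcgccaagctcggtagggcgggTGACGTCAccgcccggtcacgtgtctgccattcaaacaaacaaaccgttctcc
Nr4a1: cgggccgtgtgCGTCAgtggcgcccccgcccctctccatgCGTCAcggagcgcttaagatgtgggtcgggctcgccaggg

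The Fos stretch spans 96 to 17 bases before the start, the Fosb stretch 90 to 11 bases and the Junb stretch 136 to 57 bases before it. Those of Jun and Atf3 run from 80 bases before the start to 1 base before it. The Nr4a1 stretch, with the same limits, holds the core at 2 places. In Dusp1 the stretch lies farther out, from 170 to 91 bases before the start. Jund has a window with none of the searched letters.

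The 4 libraries held 22736626 and 25409926 counts on genes in the control replicates 1 and 2, and 23539015 and 18468637 in the deleted replicates 1 and 2. Levels are given as counts per 1000000 counts on genes (CPM), and 3 counts correspond to between 0.118 and 0.162 CPM. Chaf1b itself was at 80.3 and 57.9 CPM in the controls and at 16.1 and 17.9 CPM in the deleted libraries. Its log2 fold change was -2.01 (SE 0.25), so transcript from the locus was lower but not absent. Deleted replicate 1 stands apart from the other libraries. It held 7905 counts of Xist, the RNA of the inactive X chromosome, against 23 to 33 in the other 3, and its summed level of 16 interferon-stimulated genes was 2009 CPM, against 265 to 330 CPM. Control replicate 1 also stands apart, with at least 1 count on 39.7% of 1036 olfactory receptor genes, against 4.05% to 11.8% in the others. The differences of the 10 genes and of the named genes around them are therefore also given without deleted replicate 1. Values without control replicate 1 are added for Atf3, Egr1, Nr4a1 and Junb, the members that moved most without it, and for other genes that a control decides.

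All 10 genes had a higher fitted level in the deleted group, with log2 fold changes from 0.27 to 2.25 and a median of 1.58. The median over all 16500 tested genes was -0.03. Without deleted replicate 1 the median of the 10 was 1.01, all 10 were still on the higher side, and the median over all genes was -0.02. For 9 of the 10, every gene but Nr4a1, the lower deleted library exceeded the higher control, which held for 21.4% of all genes tested. Deleted replicate 2 alone exceeded both controls for the same count of 9, against 43.8% of tested genes. For 8 of the 10 the log2 fold change was above 1, compared with 8.45% of tested genes. In edgeR's quasi-likelihood test, with at least a 1.5-fold change and an adjusted p-value under 0.05, Jun and Fosb were called higher and the other 8 were not. Such calls were made for 0.370% of tested genes on the higher side and for 0.00606% on the lower side, where no member was called. The edgeR exact test called 7 of the 10 higher, beside 3.25% of all genes, and DESeq2 called 7, beside 2.86%. With DESeq2 size factors in place of TMM, or with at least 10 counts required in every library, none of the 10 was called. No support is drawn from these counts, because the choice of genes used the same contrast. In sorted bulk cells, a larger share of cells that transcribe a gene and more RNA in each cell cannot be told apart.

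**Figure D1:**
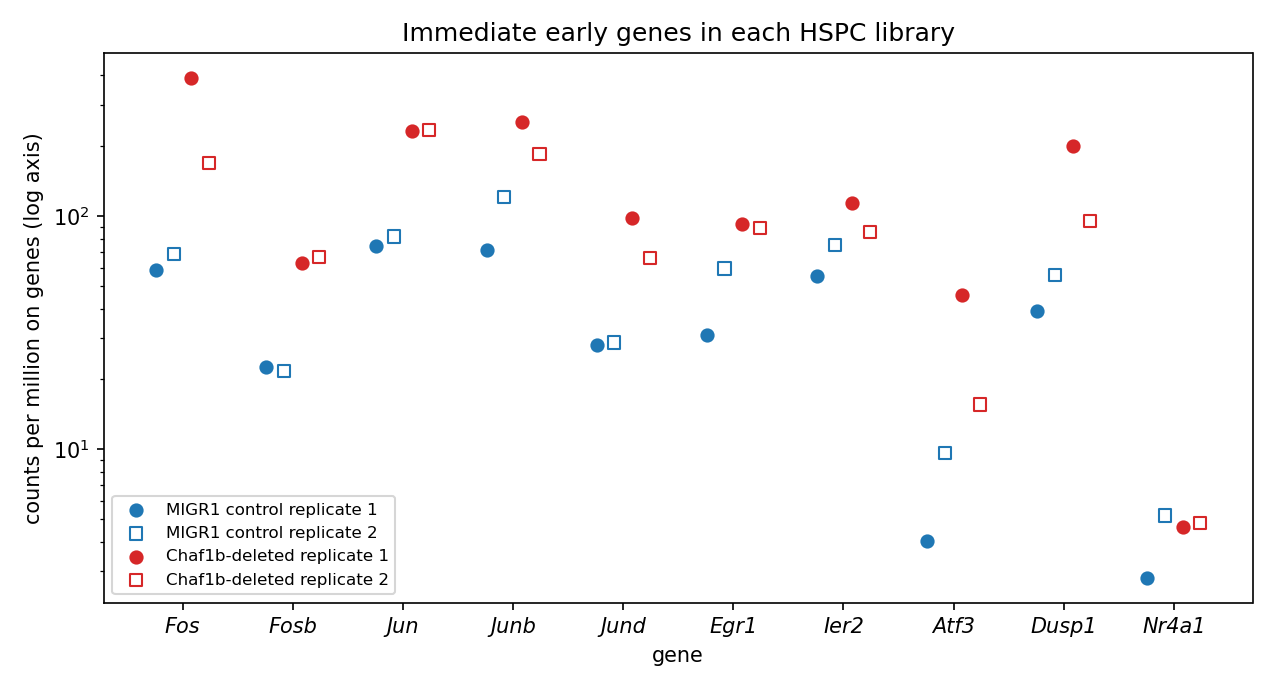
Level of each of the 10 genes in each of the 4 libraries, in CPM on a log axis, with one point per library and the groups MIGR1 control and Chaf1b-deleted marked apart. The points of the deleted group lie above those of the control group for every gene except Nr4a1, where the 4 values lie between 2.81 and 5.19 CPM.

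Fos, the prototype of the family and the AP-1 subunit that cannot pair with itself, lies at chr12:86814840-86818223 on the + strand (NCBIM37, up to 4 exons in an annotated transcript). Its level was 58.8 and 68.6 CPM in the control replicates 1 and 2, and 390 and 168 CPM in the deleted replicates 1 and 2. Both deleted libraries were above both controls, but they differed from each other far more than the controls did. The fitted log2 fold change was 2.20 (SE 0.43), a 4.59-fold higher level. It was 1.32 without deleted replicate 1 and 2.75 without deleted replicate 2, so the size of the difference depended on which deleted library was used.

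Fosb, a close relative of Fos with the same partners, lies at chr7:19888070-19895394 on the - strand (up to 4 exons). It was at 22.5 and 21.6 CPM in the controls and at 62.8 and 66.5 CPM in the deleted libraries. The replicates of each group were close together and the groups were well apart. The fitted log2 fold change of 1.58 (SE 0.21) stayed between 1.51 and 1.65 whichever library was left out.

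Jun, the AP-1 subunit that pairs with Fos proteins or with itself, lies at chr4:94715725-94718913 on the - strand, where its annotated exons form 1 uninterrupted block. Its level was 74.5 and 81.6 CPM in the controls and 231 and 233 CPM in the deleted libraries. As for Fosb, the replicates were close together, with the lowest deleted library 2.83-fold above the highest control. The log2 fold change was 1.60 (SE 0.21), and 1.495 without deleted replicate 1. Jun overlaps BC042782 on the opposite strand, whose counts of 293 and 483 in the controls and 320 and 536 in the deleted libraries were lower than those of Jun, between 1695 and 5440. How reads were assigned by strand is not given in the sources used here, so reads of the gene pair cannot be told apart with certainty.

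Junb, a Jun relative that is a weaker activator on its own, is a gene of 1 exon at chr8:87500811-87502617 on the - strand. It was at 71.3 and 120 CPM in the controls and at 253 and 185 CPM in the deleted libraries. The groups did not overlap, although control replicate 2 was well above control replicate 1. The log2 fold change was 1.24 (SE 0.32), and it was 0.87 without deleted replicate 1 and 0.91 without control replicate 1.

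Jund, the Jun relative that many resting cells already express, lies at chr8:73221638-73224515 on the + strand, also with its annotated exons in 1 uninterrupted block. Its level was 27.9 and 28.7 CPM in the controls and 97.9 and 65.9 CPM in the deleted libraries. Controls were nearly equal and both deleted libraries were higher. The log2 fold change was 1.58 (SE 0.28), and 1.14 without deleted replicate 1. Of its exonic stretches of 31 bases, 4.95% occur elsewhere in the genome, the highest share among the 10 genes, so its counts are the least certain in this respect. Gm11175, which overlaps it on the opposite strand, had 0 counts in all 4 libraries.

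Atf3, a factor of the ATF family that is induced by stress and can act as a repressor, lies at chr1:192994175-193007219 on the - strand (up to 5 exons). It was at 4.05 and 9.60 CPM in the controls and at 45.8 and 15.5 CPM in the deleted libraries. The groups did not overlap, but the replicates within each group were the farthest apart of all 10 genes. Its log2 fold change of 2.25 (SE 0.61) was the highest of the 10 and had the highest standard error. It was 1.11 without deleted replicate 1, 2.88 without deleted replicate 2 and 1.76 without control replicate 1.

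Egr1, a zinc finger factor induced by the same signals as Fos, lies at chr18:35020861-35024638 on the + strand (up to 3 exons). Its level was 31.01 and 59.5 CPM in the controls and 92.4 and 89.0 CPM in the deleted libraries. The deleted libraries were nearly equal and above both controls, which differed from each other. The log2 fold change was 1.04 (SE 0.31), with 0.90 without deleted replicate 1 and 0.64 without control replicate 1. Gm17507, an annotated gene on the opposite strand, overlaps Egr1 and was not among the identifiers counted.

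Nr4a1, an orphan nuclear receptor, lies at chr15:101097277-101105223 on the + strand (up to 7 exons). It was at 2.81 and 5.19 CPM in the controls and at 4.63 and 4.82 CPM in the deleted libraries. The groups overlapped, since control replicate 2 was the highest of the 4. Its log2 fold change was 0.27 (SE 0.43), the lowest of the 10, and it was 0.19 without deleted replicate 1 and -0.11 without control replicate 1. The counts behind these values were 64, 132, 109 and 89, the fewest of the 10 genes.

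Ier2, a short nuclear protein whose gene has 1 exon, lies at chr8:87185230-87186751 on the - strand. It was at 55.2 and 74.7 CPM in the controls and at 114 and 85.3 CPM in the deleted libraries. The lowest deleted library was 1.14-fold above the highest control, the narrowest gap among the 9 genes whose groups did not overlap. The fitted log2 fold change was 0.66 (SE 0.27), and 0.31 without deleted replicate 1.

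Dusp1 is not a transcription factor but a phosphatase that switches MAPKs off, and it lies at chr17:26642535-26645464 on the - strand (up to 4 exons). Its level was 39.1 and 55.8 CPM in the controls and 200 and 94.9 CPM in the deleted libraries. Both deleted libraries were above both controls, and deleted replicate 1 was the highest by a wide margin. The log2 fold change was 1.70 (SE 0.40), with 0.92 without deleted replicate 1 and 2.21 without deleted replicate 2.

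**Figure D2:**
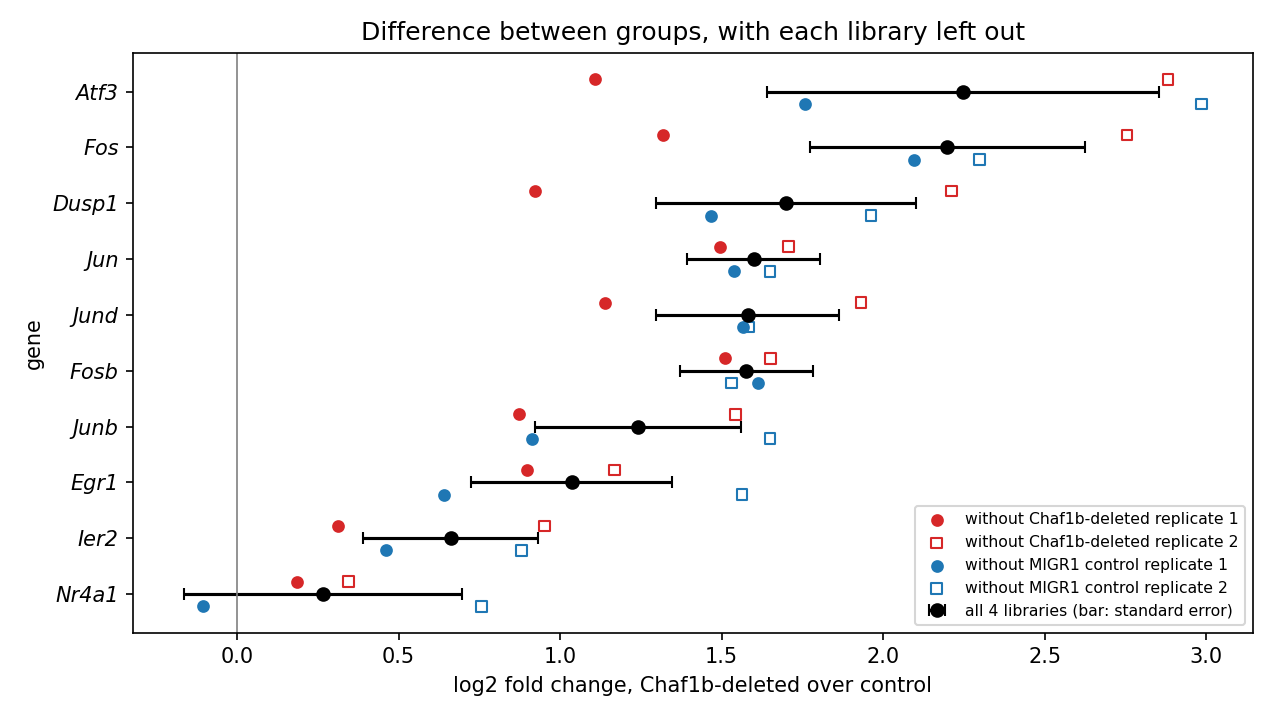
Fitted log2 fold change of each of the 10 genes, Chaf1b-deleted against MIGR1 control, with error bars of 1 standard error and the values obtained after omitting 1 library at a time. Fosb and Jun move least between these fits, from 1.51 to 1.65 and from 1.495 to 1.71, while Atf3 moves from 1.11 to 2.99 and Nr4a1 from -0.11 to 0.76.

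Replicates of the same group differed beyond counting error for some of the 10 genes and not for others. Ratios are given in the direction in which most of the 10 were high, a choice made after their values were seen. The share of all tested genes in that direction is not given. In the deleted group, where 7 of the 10 were higher in replicate 1, the ratio of replicate 1 to replicate 2 was 2.95 for Atf3 (95% counting interval 2.59 to 3.37), 2.32 for Fos (2.23 to 2.42) and 2.10 for Dusp1 (1.99 to 2.22). Jund (1.48), Junb (1.37) and Ier2 (1.34) lay between, and Jun (0.993, 0.954 to 1.03), Fosb (0.944, 0.875 to 1.02), Egr1 (1.04, 0.974 to 1.11) and Nr4a1 (0.961, 0.720 to 1.29) did not differ beyond counting error. In the control group, where 9 of the 10 were higher in replicate 2, the ratio was taken as replicate 2 to replicate 1. It was 2.37 for Atf3 (1.86 to 3.05), 1.92 for Egr1 (1.75 to 2.10), 1.85 for Nr4a1 (1.36 to 2.53) and 1.69 for Junb (1.59 to 1.79). Fosb (0.958, 0.847 to 1.08) and Jund (1.03, 0.921 to 1.14) did not differ beyond counting error in the controls. Reads had no molecular identifiers, so these intervals cover counting error only. Counted in either direction, replicates differed by more than 1.5-fold for 3 of the 10 genes in the deleted group and 4 of the 10 in the control group, compared with 35.3% and 23.0% of 16414 tested genes with counts in every library.

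**Figure D3:**
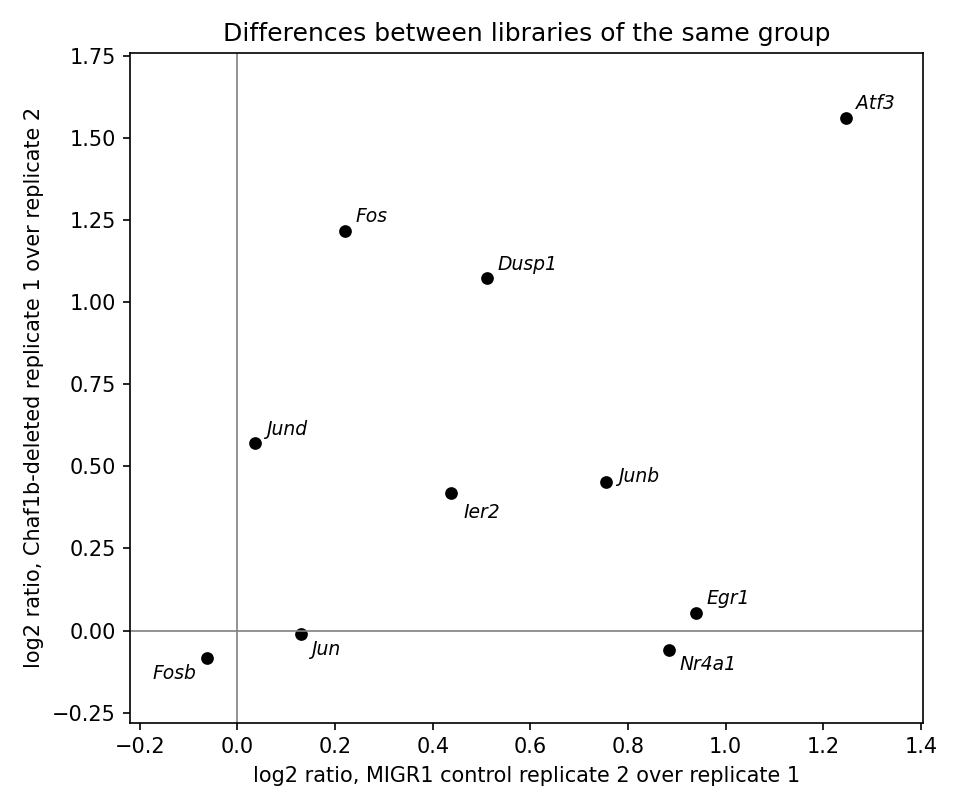
Differences between replicates of the same group for the 10 genes, with the log2 ratio of control replicate 2 to replicate 1 on the horizontal axis and of deleted replicate 1 to replicate 2 on the vertical axis, one point per gene. Atf3 lies highest on both axes (ratios 2.37 and 2.95), Fos and Dusp1 are high mainly on the vertical axis, Egr1 and Nr4a1 mainly on the horizontal axis, and Jun and Fosb lie close to the origin.

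Levels of different genes were compared per length, as CPM per kilobase of exon, with exons of the NCBIM37 annotation. In the controls Junb had the highest mean level, 53.0 ± 19.2 CPM per kb (SD, n = 2), followed by Ier2 at 42.7 ± 9.08. Their replicate values overlapped, so their order was not resolved. Fos (27.1 ± 2.93) and Jun (24.5 ± 1.56) came next and also overlapped, as did Dusp1 (17.6 ± 4.37) and Egr1 (14.6 ± 6.50). Jund (9.83 ± 0.177), Fosb (5.88 ± 0.180), Atf3 (3.44 ± 1.98) and Nr4a1 (1.62 ± 0.680) were lowest, and the last pair overlapped. For comparison, the median tested gene was at 6.07 CPM per kb, taken as the mean over all 4 libraries, not the controls alone. In the deleted group Junb (121 ± 26.7) and Fos (119 ± 66.8) had the highest mean levels, and the replicates of Fos spanned those of Junb. Jun (72.7 ± 0.358), Ier2 (65.5 ± 13.4) and Dusp1 (54.6 ± 27.4) followed, each overlapping its neighbours, and deleted replicate 2 of Fos lay within the same range. Egr1 (29.3 ± 0.784) and Jund (28.5 ± 7.85) overlapped. Fosb (17.2 ± 0.698) and Atf3 (15.5 ± 10.8) overlapped too, and Nr4a1 (1.91 ± 0.0538) was lowest in this group as well. Summed over the 10 genes, the level was 387 and 525 CPM in the controls and 1492 and 1007 CPM in the deleted libraries.

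The genes share compact structures that the choice did not use. Their gene bodies spanned 1522 to 13045 bases, with a median of 3286.5, while the median over 15049 tested genes with a model was 19310 bases. Bodies no longer than the longest of the 10 made up 38.8% of those genes. For 4 of the 10 genes (Jun, Junb, Jund and Ier2) the annotated exons of all transcripts together formed a single uninterrupted block, against 7.34% of those genes. Compact gene bodies are a known feature of immediate early genes.

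The other 5 lists were drawn up by name from textbook knowledge with earlier results of these data known, to place the 10 genes in their pathway. Of 30 other immediate early genes, 28 were tested, 25 were higher and 3 lower in the fit, and the median log2 fold change was 0.87 (0.61 without deleted replicate 1). For 22 of the 28 the lower deleted library exceeded the higher control (21.4% of all genes). By the quasi-likelihood test 1 was called higher and none lower, and 17 had an unadjusted p-value under 0.05 on the higher side (9.15% of all genes). The exact test and DESeq2 called 10 each, beside 3.25% and 2.86% of all genes. The called gene was Nr4a3, a nuclear receptor of the same family as Nr4a1, at 0.968 and 1.69 CPM in the controls and 11.6 and 10.0 CPM in the deleted libraries. The difference of Nr4a3 was 3.05 on the log2 scale (SE 0.43, adjusted p = 0.043), and 2.82 without deleted replicate 1. That call was lost with DESeq2 size factors, with library size as the only scaling and with at least 10 counts required in every library. Whether Nr4a3 and Nr4a1 differed in their change was not tested. Arc, best known as a neuronal immediate early gene, had 3 and 9 counts in the controls and 138 and 67 in the deleted libraries. For Arc the log2 fold change was 4.29 (SE 0.65, adjusted p = 0.053), which missed the threshold, and 3.77 without deleted replicate 1. At the other end, Pim1, a kinase gene induced by cytokine signalling through STAT5, was at 287 and 495 CPM in the controls and 268 and 228 CPM in the deleted libraries (log2 fold change -0.62, adjusted p = 0.481, and -0.86 without deleted replicate 1). Errfi1, a feedback inhibitor of the EGF receptor, was at 4.66 and 25.5 CPM in the controls and 11.8 and 8.77 CPM in the deleted libraries (-0.50, adjusted p = 0.820). Its groups overlapped and its direction turned with the control used, from -1.26 without control replicate 1 to 1.17 without control replicate 2, and it was -0.86 without deleted replicate 1.

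Of 14 further genes for AP-1 partners, 12 were tested, 7 were higher and 5 lower in the fit, and the median log2 fold change was 0.15 (-0.0035 without deleted replicate 1). None was called in either direction by the quasi-likelihood test, and 2 had an unadjusted p-value under 0.05, both higher (9.15% of all genes). Fosl2, a Fos relative, was at 48.4 and 69.4 CPM in the controls and 97.5 and 128 CPM in the deleted libraries (log2 fold change 0.95, SE 0.24, adjusted p = 0.163, and 1.04 without deleted replicate 1). Its groups did not overlap. Batf3, a partner of Jun proteins in dendritic cells, had the highest log2 fold change of the list, 1.78 (SE 0.69, adjusted p = 0.349), at no more than 2.42 CPM. It was 1.33 without deleted replicate 1, 1.15 without control replicate 1 and 2.95 without control replicate 2. Batf, another such partner, was on the lower side, at -0.24 (adjusted p = 0.820), and at 0.11 without control replicate 1 and -0.50 without deleted replicate 1.

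Of 13 feedback inhibitors of MAPK signalling, all were tested, 11 were higher and 2 lower, and the median log2 fold change was 0.60 (0.49 without deleted replicate 1). None was called by the quasi-likelihood test, and 4 had an unadjusted p-value under 0.05 on the higher side (9.15% of all genes). The exact test called 1 and DESeq2 called 3, beside 3.25% and 2.86% of all genes. Dusp6, the phosphatase of ERK and a relative of Dusp1, was at 80.4 and 99.9 CPM in the controls and 245 and 203 CPM in the deleted libraries. For Dusp6 the log2 fold change was 1.35 (SE 0.24, adjusted p = 0.079), and 1.09 without deleted replicate 1. Dusp5, which also acts on ERK, was at 16.8 and 29.4 CPM in the controls and 65.0 and 40.8 CPM in the deleted libraries (1.25, SE 0.36, adjusted p = 0.220, and 0.74 without deleted replicate 1). Spry2 (-0.16, adjusted p = 0.889) and Nab1 (-0.04, adjusted p = 0.966), inhibitors of receptor signalling and of Egr proteins, were lowest in the list, at -0.45 and -0.20 without deleted replicate 1 and at 0.09 and 0.12 without deleted replicate 2.

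The upstream list ran from the receptor Kit, which is the CD117 by which the cells were selected, through the kinases to SRF and CREB. Of its 25 genes, all tested, 11 were higher and 14 lower, with a median log2 fold change of -0.08 (0.00025 without deleted replicate 1), and none was called by the quasi-likelihood test, the exact test or DESeq2. None had an unadjusted p-value under 0.05. Kit was at 109 and 124 CPM in the controls and 95.6 and 124 CPM in the deleted libraries. Crem (0.50, adjusted p = 0.603) and Map2k4, a kinase that activates JNK (0.46, adjusted p = 0.431), were highest. Creb1, the gene of CREB, was lowest, at 161 and 194 CPM in the controls and 107 and 144 CPM in the deleted libraries (-0.49, adjusted p = 0.411), followed by Mapk8, the gene of JNK1 (-0.44, adjusted p = 0.470). Without deleted replicate 1 they were at 0.51, 0.32, -0.39 and -0.37, in the order named. These are transcript levels, and the activity of the kinases was not measured.

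Of 15 genes known as AP-1 targets in other settings, 14 were tested, all 14 were higher in the fit, and the median log2 fold change was 0.89 (0.51 without deleted replicate 1). For 12 of them the lower deleted library exceeded the higher control (21.4% of all genes), none was called by the quasi-likelihood test, and 9 had an unadjusted p-value under 0.05, all higher (9.15% of all genes). The exact test and DESeq2 called 4 each, beside 3.25% and 2.86% of all genes. Mmp9, a metalloproteinase of mature myeloid cells, was at 135 and 44.4 CPM in the controls and 664 and 506 CPM in the deleted libraries. Its log2 fold change of 2.74 (SE 0.51, adjusted p = 0.085) was the highest of the list. It was 2.41 without deleted replicate 1, 3.77 without control replicate 1 and 2.14 without control replicate 2. Ccnd1, a G1 cyclin, followed at 1.83 (SE 0.70, adjusted p = 0.344), on control values of 1.45 and 7.60 CPM. It was 1.16 without deleted replicate 1, 1.09 without control replicate 1 and 3.45 without control replicate 2. Tnf (0.26, adjusted p = 0.716) and Vim (0.27, adjusted p = 0.782), a cytokine and a filament protein, were lowest, at 0.02 and -0.10 without deleted replicate 1.

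**Figure D4:**
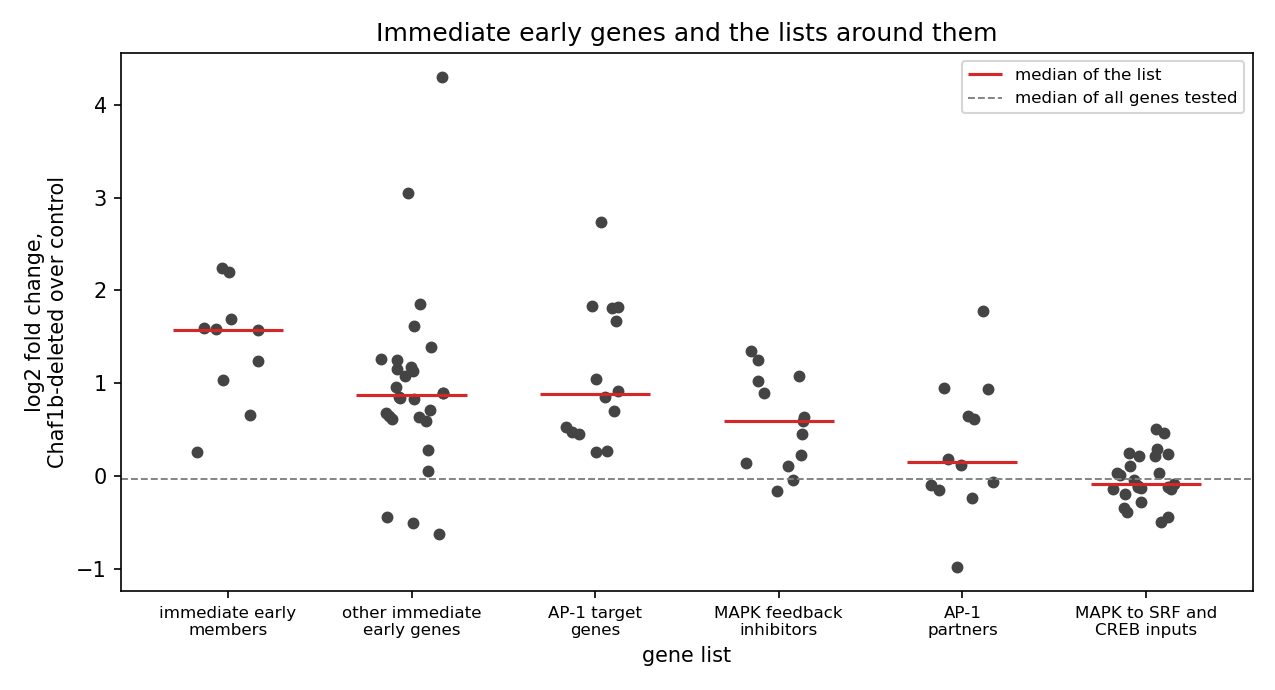
Log2 fold change, Chaf1b-deleted against MIGR1 control, of each tested gene in the 10 immediate early genes and in the 5 pathway lists, one point per gene with the median of each list as a red line and that of all genes tested as a dashed line. The medians are 1.58 for the 10 genes, 0.87 for the other immediate early genes, 0.15 for AP-1 partners, 0.60 for MAPK feedback inhibitors, -0.08 for the upstream inputs and 0.89 for AP-1 targets.

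Markers of other cell types were summed in the same libraries, since AP-1 and Egr genes are also high in mature myeloid cells. Calls in these lists are those of the quasi-likelihood test, made for 0.370% of all genes on the higher side. The 10 neutrophil markers summed to 47464 and 55370 CPM in the controls and 69456 and 52452 CPM in the deleted libraries, led by S100a9. In the fit 9 were higher and 1 lower, with a median log2 fold change of 0.71 (0.25 without deleted replicate 1). For 5 of these markers the lower deleted library exceeded the higher control (21.4% of all genes). Of the 10, Cxcr2 alone was called, on the higher side (named after its values were seen). Its log2 fold change was 1.52, and 1.55 without deleted replicate 1. The 10 monocyte and macrophage markers summed to 1002 and 1756 CPM and to 1891 and 1447 CPM, with none of 10 called and none at 0. Of these, 7 were higher and 3 lower in the fit, with a median of 0.42 (0.14 without deleted replicate 1). For 5 the lower deleted library exceeded the higher control (21.4% of all genes). Control replicate 1 was lowest and deleted replicate 1 highest for both lists and for the summed level of the 10 immediate early genes. By summed level, deleted replicate 2 was below control replicate 2 for both marker lists. The sum of the 10 immediate early genes was above it, at 1007 against 525 CPM. Counted by gene, deleted replicate 2 exceeded both controls for 5 of 10 markers in each list. It did so for 9 of the 10 immediate early genes and for 43.8% of tested genes. Likeness of pattern cannot be ranked with 4 libraries. Dendritic cell markers summed to 44.3 and 199 CPM in the controls and 367 and 196 CPM in the deleted libraries. All 9 tested were higher in the fit, with a median log2 fold change of 1.67 (1.22 without deleted replicate 1). For 6 of the 9 the lower deleted library exceeded the higher control (21.4% of all genes). Of 9 tested, 2 were called higher, Fscn1 and Ccl22 (named after their values were seen). Their log2 fold changes were 3.72 and 2.91 (3.64 and 2.51 without deleted replicate 1). The lymphoid markers summed to 13.9 and 18.1 CPM in the controls and 34.8 and 29.7 CPM in the deleted libraries. Of these 10 markers 7 were tested, with a median log2 fold change of 0.93 (0.88 without deleted replicate 1). For all 7 the lower deleted library exceeded the higher control (21.4% of all genes), and none was called. Cd3e, Cd3g and Ncr1, named because they were not tested, were each at no more than 0.38 CPM. Of 9 mast cell and basophil markers tested, 7 were higher and 2 lower, with a median of 0.46 (0.20 without deleted replicate 1). The 10 megakaryocyte and erythroid markers summed to 170 and 143 CPM in the controls and 183 and 307 CPM in the deleted libraries. Of them, 7 were higher and 3 lower, with a median of 0.36 (0.45 without deleted replicate 1). None was called in either of these lists. HSPC markers summed to between 3280 and 4498 CPM, led by Mpo, with a median log2 fold change of 0.04. Of the 10, Flt3 alone was called, on the higher side (also named after its values were seen). Flt3 was at 4.66 and 5.31 CPM in the controls and 19.3 and 22.7 CPM in the deleted libraries. Its log2 fold change was 2.09, and 2.10 without deleted replicate 1. Of 11 heat shock genes tested, 5 were higher and 6 lower in the fit. Their median log2 fold change was -0.24 (-0.43 without deleted replicate 1). Hspa1a and Hspa1b were called higher, also named after their values were seen. The log2 fold changes of this pair were 5.05 and 5.12 (4.92 and 4.94 without deleted replicate 1), from no more than 0.59 CPM in either control. The summed level of the list, led by Hsp90ab1, was 4863 and 3392 CPM in the controls and 3603 and 2880 CPM in the deleted libraries. By the exact test and DESeq2, 3 and 4 neutrophil markers and 1 and 1 monocyte and macrophage markers were called higher. For dendritic cell markers the counts were 4 and 4, for HSPC markers 1 and 1, and for heat shock genes 2 and 2. Mast cell and basophil markers had 1 and 1 (with 1 and 1 called lower), and megakaryocyte and erythroid markers 2 and 2. Lymphoid markers had 0 and 0, and the shares of all genes called higher were 3.25% and 2.86%. The part of these cell types, of the interferon-stimulated genes and of Xist in the levels of the immediate early genes was not tested.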

How the data were processed

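RNA from 4 libraries of CD117+ HSPCs, 2 per group, was prepared by the authors with a stranded total RNA kit after ribosomal depletion. Reads were aligned to mm9 with STAR and counted per gene with HTSeq, and the authors deposited the raw counts, 1 table per library. The annotation release and the strand setting of the counting are not given in the sources used here. Of 43629 identifiers, 33068 were named from the NCBIM37 annotation, so gene models may differ from those counted. Reads without a feature made up 35.8% to 48.3% and ambiguous reads 2.05% to 2.76%, and both were left out of library sizes. Groups and replicate numbers were taken from the labels.

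From the counts, edgeR 4.0.16 (limma 3.58.1, R 4.3.3) kept genes with filterByExpr (minimum count 10), normalized by TMM (factors 0.925 to 1.06) and compared the groups by glmQLFit and glmQLFTest on all 16500 genes. Genes with a Benjamini-Hochberg adjusted p-value under 0.05 and at least a 1.5-fold change were called. The common dispersion was 0.0763. Adjusted p-values in the text come from this fit. The script was tested on simulated data. The 10 genes, the lists, the motifs and the tests were chosen with earlier results of these data known. In each pathway list the called genes, the 2 highest and the 2 lowest by log2 fold change were named, and in other lists at most the 2 most abundant, except where the text says otherwise. One gene that the rule names is not reported here. Intervals are 95% exact binomial. The alternatives were other normalizations and filters, the exact test, DESeq2 1.42.0, a bias-adjusted quasi-likelihood method, a replicate block, stricter thresholds and each library left out in turn.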

Additional observations from a re-analysis of the deposited data

How the results depend on the processing

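Every direction was the same under all alternatives for 9 of the 10 genes, and Nr4a1 reversed to -0.11 without control replicate 1 and ranged up to 0.76 with a library left out. The median log2 fold change of the 10 was between 1.01 and 1.68 when a library was left out. Counts of called genes depended on the settings, and the cause was not tested.

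Genes called higher, 61 as reported, numbered 27 with DESeq2 size factors, 30 with library size, 808 without a filter, 3 with at least 10 counts in every library, 537 by the exact test, 472 by DESeq2, 0 at the stricter thresholds (2-fold, adjusted p under 0.01), and 125 to 331 with a library left out. Genes called lower, 1 as reported, numbered 79 without a filter, 0 with the minimum, 37 by the exact test, 34 by DESeq2, 0 at the stricter thresholds and 6 to 42 with a library left out. Of the 10 genes, 2 as reported, 0 were called with DESeq2 size factors, 8 without a filter, 0 with the minimum, 7 by the exact test, 7 by DESeq2, 0 at the stricter thresholds and 3 to 8 with a library left out. Of the other immediate early genes, 1 as reported, 0 were called with DESeq2 size factors, with library size, with the minimum or at the stricter thresholds, 15 without a filter, 10 by the exact test, 10 by DESeq2, 2 by the bias-adjusted method and 3 to 9 with a library left out. From 0 as reported, AP-1 partners called were 1 without a filter, 1 by the exact test, 1 by DESeq2 and 0 to 1 with a library left out. MAPK feedback inhibitors were 3, 1 and 3 in the same order and 0 to 2, and AP-1 targets 7, 4 and 4 and 0 to 6. Upstream inputs were 0 throughout.

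With the replicate block, 14 genes were called higher and 0 lower, and 0 of the 10 genes and 0 of the other immediate early genes were called. Same-numbered libraries did not deviate together (r = 0.0133 across genes). With 2 libraries per group this value cannot show whether they shared a preparation, so pairing is not known. A fit without a library leaves 1 library in its group, which is assumed to vary like the others. With 2 libraries per group the spread is poorly known, and no exact test over samples could reach the threshold.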
